A study of Mus musculus with 18 samples.

Results

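Fatty acid synthesis and desaturation are represented here by 10 genes, Acly, Acaca, Fasn, Me1, Elovl1, Elovl5, Elovl6, Scd1, Scd2 and Srebf1. Members were the probe sets that carry 1 of these symbols and no other gene, and there were 26 of them among 45101 on the array. Each gene was represented by its brightest probe set on average, and all 10 passed the filter on dim values, which left 12793 genes. The study measured total RNA from 9 tumours of the TRAMP mouse and 9 normal mouse prostates, each on 1 Affymetrix array. TRAMP stands for transgenic adenocarcinoma of the mouse prostate, a model in which an androgen-driven promoter active in prostate epithelium expresses the viral T antigens. The normal samples came from the ventral and dorsolateral lobes, while the labels name no lobe for the tumours. Strain, age, hormonal state and treatment are not given in the sources used here. The labels do not say whether a sample was 1 animal or a pool, and the p-values cover the spread from sample to sample only, which may be technical.

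Cells build fatty acids from citrate that leaves the mitochondrion. Acly cleaves it to acetyl-CoA, Acaca carboxylates acetyl-CoA to malonyl-CoA, and Fasn joins these units into palmitate, with NADPH supplied in part by the malic enzyme Me1. Elongases of the Elovl family lengthen the chain in the endoplasmic reticulum, and the stearoyl-CoA desaturases Scd1 and Scd2 place the first double bond. The transcription factor Srebf1 switches on much of this set once Scap and the proteases Mbtps1 and Mbtps2 have released it from the membrane. Adipocytes, hepatocytes and secretory epithelia, the prostate among them, are known for high activity of the pathway, so the signal of the adipocyte hormone Adipoq was followed on every array.

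Promoters are shown for Elovl5, the member called higher, for Acly, a member called lower, and for Fasn, the central enzyme; no relation of sequence to expression was tested. RefSeq's promoter table (GRCm38.p6) held 8 of the 10 members, and the 250 bases before the start are printed 5′ to 3′ for 3 of them, with motif matches on either strand in capitals. The Fasn window is chr11:120824548-120824797, minus strand; the Acly window is chr11:100528001-100528250, minus strand; the Elovl5 window is chr9:77917115-77917364, plus strand.
Fasn: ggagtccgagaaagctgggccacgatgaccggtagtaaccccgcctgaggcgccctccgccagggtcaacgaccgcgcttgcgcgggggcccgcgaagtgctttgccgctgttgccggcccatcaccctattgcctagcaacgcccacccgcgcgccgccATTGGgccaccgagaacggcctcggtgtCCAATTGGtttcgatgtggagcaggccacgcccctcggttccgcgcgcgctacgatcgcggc
Acly: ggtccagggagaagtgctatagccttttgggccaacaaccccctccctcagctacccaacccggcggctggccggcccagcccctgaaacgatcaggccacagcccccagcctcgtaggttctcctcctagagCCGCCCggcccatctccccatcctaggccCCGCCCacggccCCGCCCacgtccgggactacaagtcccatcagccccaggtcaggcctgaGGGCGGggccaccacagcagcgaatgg
Elovl5: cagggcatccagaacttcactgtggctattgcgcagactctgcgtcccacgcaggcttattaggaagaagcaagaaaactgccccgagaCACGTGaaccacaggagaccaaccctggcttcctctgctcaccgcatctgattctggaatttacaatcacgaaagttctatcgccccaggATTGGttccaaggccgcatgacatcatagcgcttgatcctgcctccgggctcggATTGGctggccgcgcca
The motifs searched were the sterol regulatory element TCACNCCAC, the E-box CACGTG, the CCAAT box (CCAAT, or ATTGG on the other strand) and the GC box (GGGCGG, or CCGCCC). Fasn held 3 CCAAT boxes, of which the last 2 overlap, and no E-box or GC box. In Acly the capitals mark 4 GC boxes. Elovl5 held 1 E-box and 2 CCAAT boxes. Among the 8 members, 5 held a CCAAT box, 4 a GC box, 1 an E-box and 0 the sterol element in any listed promoter. Some members have several listed promoters, 12 windows for the 8, and a member was counted if any of them held the letters. The same letters occurred in 33.8%, 32.7%, 6.02% and 1.05% of 32851 mouse promoter windows of that length. Those shares are per single window, so they are not directly comparable with the counts of members. A match is a run of letters, not a binding site, and a missing one says only that those letters are not in the window.

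The tissue labels were set against marker lists, as means of log2(signal + 16), and several arrays stood apart. Of 7 tested prostate secretory genes 6 were lower in tumours (limma, adjusted p under 0.05), with a mean log2 value of 6.0 to 9.40 in tumours and 7.39 to 13.7 in normal prostate. The lowest normal value was that of normal prostate 9, a sample high in seminal vesicle genes, as were tumours 3, 5 and 7 and, less so, tumours 6 and 8. Pbsn, the defining secretory gene of the mouse prostate, was above the 40th percentile on 0 tumours and 8 normal prostates and did not pass the filter. Spinkl of the same list did not pass either and went the other way, above that percentile on 5 tumours and 0 normal prostates. Ceacam10, the tested gene not called lower, averaged 1.74 higher in tumours and was not called (limma's adjusted p = 0.287). The luminal epithelial list ran between 7.75 and 12.9 in tumours and between 11.3 and 13.6 in normal prostate, with tumour 9 lowest. Tumour 9 was also the lowest array of all for Scd1 (8.10) and for Elovl1 (10.20). Of 7 macrophage genes 2 were called higher, and of 6 smooth muscle genes 0 were called in either direction. The part of tissue mixture in the results was not tested beyond the fits given with them.

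TRAMP tumours had less RNA of both desaturases and more of the elongase Elovl5 than normal prostate, while the synthesis steps Acaca, Fasn and Me1 did not pass the test. In limma's test over 12793 genes, with Benjamini-Hochberg adjustment and a threshold of 0.05, 1 of the 10 members was higher in tumours and 3 were lower. Of all genes, 11.3% were called higher and 12.7% lower. Values are log2(signal + 16), and all differences are tumour minus normal prostate on that scale, which understates the change of dim genes. The median difference of the members was -0.43, against -0.01 over all genes. In bulk tissue, fewer cells of a type and less RNA per cell cannot be told apart.

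**Figure D1:**
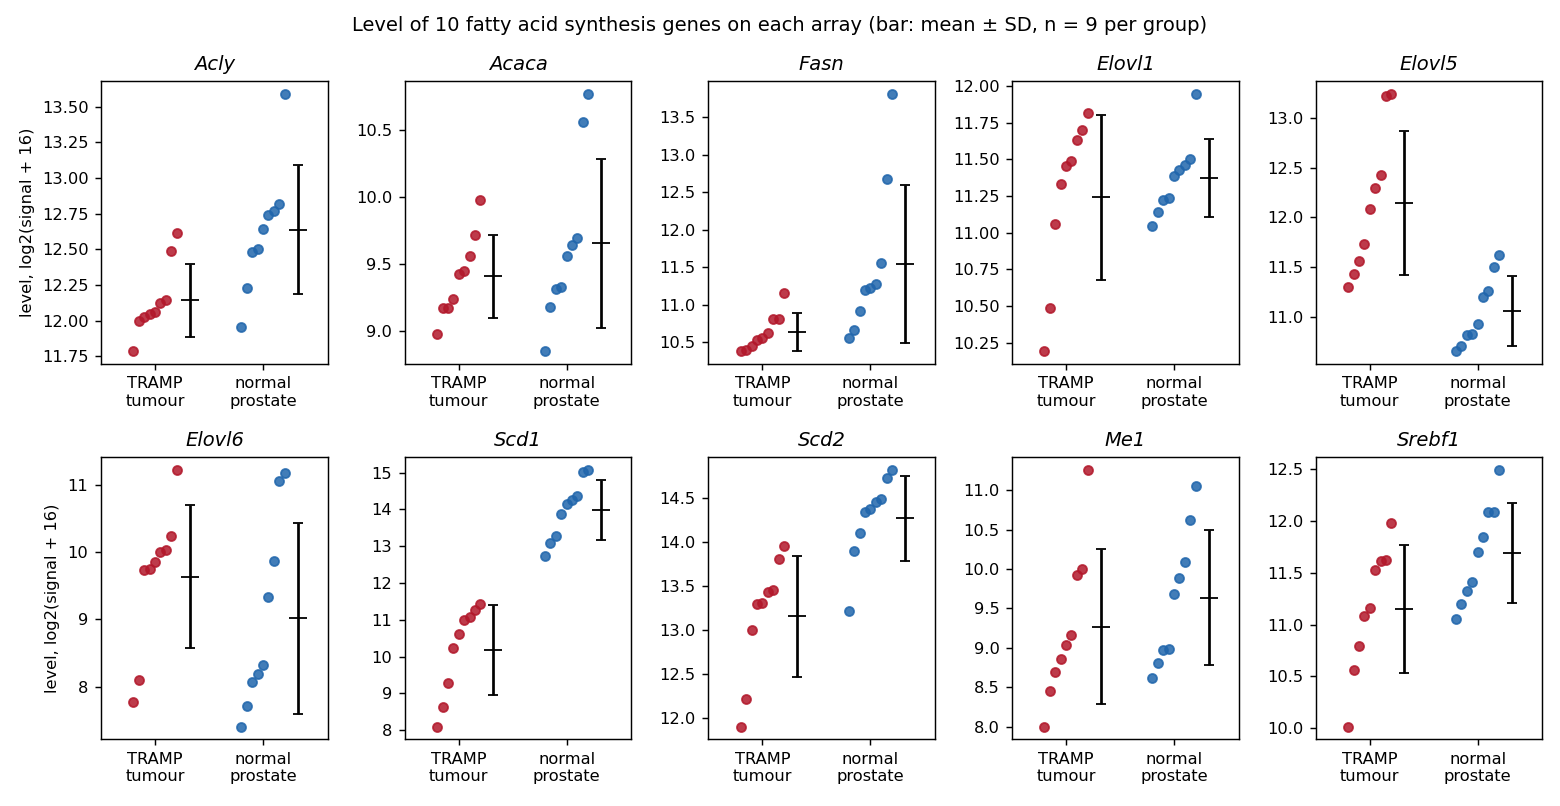
Log2(signal + 16) of each member on the 9 TRAMP tumour arrays (left in each panel) and the 9 normal prostate arrays (right); points are arrays sorted low to high, and bars are mean ± SD. Scd1 is the member whose 2 groups do not overlap, and Elovl5 is the member that lies higher in tumours with an adjusted p under the threshold.

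Scd1, the main desaturase of liver and fat in the mouse, had the largest difference of the 10. Its lowest, median and highest values were 8.10, 10.63 and 11.43 in tumours, against 12.75, 14.15 and 15.08 in normal prostate. Every tumour lay below every normal prostate, as for 0.93% of all genes. The means were 10.19 ± 1.22 in tumours and 13.99 ± 0.82 in normal prostate (SD, n = 9 each). The difference was -3.80 ± 0.46 (SE), or 13.9-fold lower in tumours, with limma's adjusted p = 5.25e-05. A second Scd1 probe set also did not overlap between the groups. It differed by -2.43 with limma's adjusted p = 0.000369 over 27292 probe sets, of which 9.48% were called lower and 10.1% higher. The probe sets of one gene bind different stretches of its RNA with different brightness, so their levels are not set against each other.

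Scd2, the desaturase that in the mouse prevails in brain and in embryonic tissues, was also lower, by less. In tumours its lowest, median and highest values were 11.91, 13.31 and 13.97, against 13.22, 14.38 and 14.83 in normal prostate. The groups overlapped, since normal prostates 9 and 3, at 13.22 and 13.90, lay below the highest tumour, and 6 tumours lay above normal prostate 9. Means were 13.16 ± 0.68 in tumours and 14.27 ± 0.49 in normal prostate (SD, n = 9 each), a difference of -1.11 ± 0.27 (SE) or 2.17-fold lower in tumours, with limma's adjusted p = 0.00628. The other 2 kept Scd2 probe sets differed by -0.64 and -0.54 with limma's adjusted p = 0.0760 and 0.0746. The call was lost with the actin 3′ to 5′ ratio, a measure of RNA integrity, as a covariate (-0.76, limma's adjusted p = 0.0544). That ratio was 1.12 ± 0.51 (log2) in tumours and 1.71 ± 0.69 in normal prostate (SD, n = 9 each), and its part in the Scd2 result was not tested further.

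The pair of desaturases did not move in step. Within an array, the log2 value of Scd1 minus that of Scd2 was -2.97 ± 1.46 in tumours and -0.29 ± 0.995 in normal prostate (SD, n = 9 each). The difference of these differences was -2.69, with an exact two-sided permutation p = 0.000535 over all 48620 splits of the arrays into 9 and 9. Single arrays show the same lack of step. Tumour 1 had the highest Scd1 of the tumours (11.43) and the lowest Scd2 of all arrays (11.91). Normal prostate 7 had the lowest Scd1 of the normal samples (12.75) and the highest Scd2 of all arrays (14.83). The permutation test took no account of adipocyte RNA. With Adipoq as a covariate the group differences lay closer, -2.05 for Scd1 and -1.90 for Scd2. With the mean of the adipocyte genes they were -2.35 and -1.56. The gap between the 2 genes was not tested in those fits. In the RefSeq gene table both genes lie on chromosome 19, in a cluster with Scd3 and Scd4. Scd3 had a difference of -0.46 ± 0.22 (SE) and did not pass limma's test (adjusted p = 0.136). The desaturase copies resemble each other in sequence, and cross-hybridisation between their probe sets was not tested.

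Elovl5, which lengthens polyunsaturated chains, was the member called higher in tumours. Its lowest, median and highest values were 11.30, 12.08 and 13.24 in tumours, against 10.66, 10.93 and 11.62 in normal prostate. Of the tumours, 6 lay above every normal prostate and the other 3 lay within the normal range. Means were 12.14 ± 0.72 in tumours and 11.06 ± 0.35 in normal prostate (SD, n = 9 each), a difference of 1.08 ± 0.26 (SE) or 2.12-fold, with limma's adjusted p = 0.00583. Its other probe set differed by 1.30 with limma's adjusted p = 0.00182 in the fit of probe sets.

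Elovl5 was highest on the 3 tumours with the highest seminal vesicle signals. Tumours 3, 5 and 7 had Elovl5 values of 13.24, 13.22 and 12.42, and mean log2 values of the seminal vesicle list of 15.2, 15.5 and 15.3. Tumour 9 had an Elovl5 value of 12.30 and the lowest seminal vesicle score of all arrays, 5.13. Normal prostate 9, with a score of 14.1, had an Elovl5 value of 11.50, the second highest among normal samples. Of 7 listed genes 3 were tested and 1 was called higher, and the score ran between 5.13 and 15.5 in tumours and between 5.85 and 14.1 in normal prostate. Without normal prostate 9 and tumours 3, 5, 6, 7 and 8, the arrays with high scores, Elovl5 still differed by 0.77 with limma's adjusted p = 0.0194. In that fit, 17.2% of all genes were called higher and 20.8% lower, and Scd1 and Scd2 were the members called lower (-3.64 and -1.68). The tumours kept there were 1, 2, 4 and 9, with Elovl5 values of 12.08, 11.30, 11.43 and 12.30. Tumours 2 and 4 lay within the normal range. Tumours 1 and 9 had the lowest luminal epithelial means of the tumours, 9.52 and 7.75, and the part of this was not tested.

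Elovl6, which takes palmitate to stearate, had a wider spread within each group than the difference between them. It had a lowest, median and highest value of 7.77, 9.85 and 11.22 in tumours, against 7.41, 8.32 and 11.17 in normal prostate. The difference was 0.62 with a 95% interval of -0.53 to 1.77 and limma's adjusted p = 0.433. Its high values fell on tumour 4 (11.22), normal prostate 3 (11.17) and normal prostate 9 (11.06). Tumour 4 and normal prostate 3 also had the highest Me1 values of their groups, 11.26 and 11.05, and the highest signals of the urothelial plaque gene Upk1b, 14.42 and 14.69. The mean of 6 uroplakin genes was 12.5 on tumour 4 and 7.22 to 8.98 on the other tumours, against 12.6 and 10.98 on normal prostates 3 and 5 and 8.05 to 9.03 on the other normal samples. Other arrays did not share this pattern. Tumours 6 and 8 had Upk1b values of 12.85 and 13.12 and the lowest Elovl6 values of the tumours, 8.11 and 7.77. Normal prostate 5 had an Elovl6 value of 9.34 and a Me1 value of 8.98, and normal prostate 9 had a uroplakin mean of 8.23. The part of bladder tissue in these values was not tested. Without tumour 4 and normal prostates 3 and 5, an alternative added after seeing the data, Elovl6 differed by 0.78 and Me1 by -0.51, both not called (limma's adjusted p = 0.322 and 0.315).

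Elovl1, which extends saturated and monounsaturated chains to very long ones, did not pass the test. Its lowest, median and highest values were 10.20, 11.46 and 11.82 in tumours, against 11.05, 11.39 and 11.95 in normal prostate. The difference was -0.13, with a 95% interval of -0.56 to 0.30 and limma's adjusted p = 0.670. Thus the 3 elongases measured among the members gave 1 rise and 2 differences whose intervals include 0.

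Of the synthesis enzymes, Acly was called lower at the very edge of the threshold. The ATP citrate lyase had a lowest, median and highest value of 11.79, 12.06 and 12.61 in tumours, against 11.95, 12.64 and 13.59 in normal prostate. The difference was -0.49 ± 0.18 (SE), with limma's adjusted p = 0.0497. The call held in 9 of 39 settings, with differences between -0.58 and -0.21. In the fit of probe sets, the 4 kept Acly probe sets differed by -0.49, -0.42, -0.24 and 0.11. None of them was called there (limma's adjusted p = 0.0574, 0.131, 0.597 and 0.724). Normal prostate 4 was its highest array.

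Fasn, the fatty acid synthase itself, was narrow in tumours and wide in normal prostate. Its lowest, median and highest values were 10.39, 10.56 and 11.15 in tumours, against 10.56, 11.23 and 13.81 in normal prostate. Of the normal samples, 6 lay above every tumour, and normal prostates 4 and 2 stood highest at 13.81 and 12.68. Means were 10.64 ± 0.25 in tumours and 11.54 ± 1.05 in normal prostate (SD, n = 9 each). The difference was -0.91, with a 95% interval of -1.62 to -0.19, and did not pass over all genes (limma's adjusted p = 0.0597). It passed with housekeeping genes or the 75th percentile as the centre of each array (adjusted p = 0.0455 and 0.0437) and without normal prostate 5 or 7 (0.0404 and 0.0454).

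Acaca, whose product malonyl-CoA also restrains fatty acid burning, and Me1 did not pass the test either. Acaca had a lowest, median and highest value of 8.98, 9.42 and 9.98 in tumours, against 8.85, 9.56 and 10.77 in normal prostate. The difference was -0.25 with a 95% interval of -0.73 to 0.23 and limma's adjusted p = 0.460. As for Fasn, normal prostates 4 and 2 were its highest arrays, at 10.77 and 10.56. Me1 had values of 8.0, 9.03 and 11.26 in tumours, against 8.61, 9.68 and 11.05 in normal prostate (lowest, median and highest). It differed by -0.37, with a 95% interval of -1.22 to 0.49 and limma's adjusted p = 0.544.

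Srebf1, the transcription factor of the pathway, had a lowest, median and highest value of 10.02, 11.16 and 11.98 in tumours, against 11.06, 11.70 and 12.50 in normal prostate. Its difference of -0.54 had a 95% interval of -1.07 to -0.01 and did not pass over all genes (limma's adjusted p = 0.128). Tumour 1 was its lowest array and normal prostate 3 its highest. Its 1 probe set can match several transcripts, so the forms of Srebf1 that arise from different starts were not separated.

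**Figure D2:**
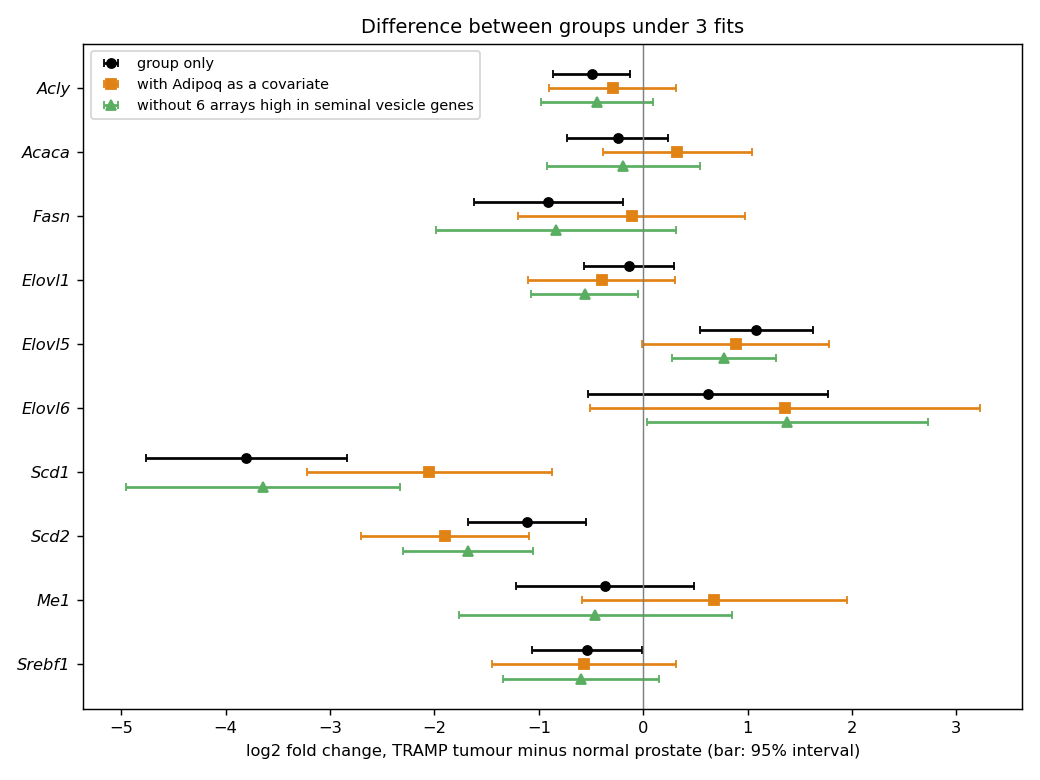
Difference of each member on the log2 scale, tumour minus normal prostate, in 3 limma fits: group only, with Adipoq as a covariate, and without the 6 arrays high in seminal vesicle genes; bars are 95% intervals. With Adipoq in the fit the Scd1 interval runs from -3.22 to -0.88, and that of Fasn spans 0.

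Adipocyte genes were lower in tumours, and the members were set against them array by array. Adipoq had a lowest, median and highest value of 4.45, 6.57 and 11.24 in tumours, against 6.71, 13.11 and 14.30 in normal prostate. It was dim, under the 40th percentile of its array, on 7 of 9 tumours and on 1 of 9 normal prostates, and its difference was -5.46 ± 0.98 (SE; limma's adjusted p = 0.000898). Of the 15 listed adipocyte genes, 10 were tested and 8 were lower, namely Adipoq, Retn, Cidec, Pck1, Fabp4, Adig, Car3 and Lipe. Lpl and Plin4 had differences of -2.18 and -1.93 that were not called (limma's adjusted p = 0.0588 and 0.0577). Lep and Cidea, both dim on every tumour, and Pparg did not pass the filter. The mean log2 value of the list ran between 6.86 and 10.2 in tumours and between 6.89 and 13.1 in normal prostate.

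With Adipoq of each array in the fit, both desaturases stayed lower in tumours. Scd1 differed by -2.05 and Scd2 by -1.90 (limma's adjusted p = 0.0190 and 0.00473), 2 of 10 members against 8.78% of all genes. No member was called higher there, against 8.13% of all genes, and Elovl5 had a difference of 0.88 with limma's adjusted p = 0.158. With the mean of the adipocyte list in place of Adipoq, the values were -2.35 for Scd1, -1.56 for Scd2 and 1.25 for Elovl5, all called (limma's adjusted p = 0.0129, 0.0186 and 0.0488). In that fit 6.16% of all genes were higher and 5.67% lower. The differences of Fasn and Acaca were -0.11 and 0.33 with Adipoq in the fit, with 95% intervals of -1.20 to 0.97 and -0.39 to 1.05. The Adipoq ranges of the groups overlap on 5 arrays, and such fits lean on them.

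Those arrays were tumours 1, 4 and 6 and normal prostates 5 and 7. Tumours 1, 4 and 6 had Adipoq values of 11.24, 8.83 and 6.85, against 10.67 and 6.71 in normal prostates 5 and 7. Their Scd1 values were 11.43, 10.63 and 11.26 in the tumours, against 13.09 and 12.75 in the normal samples. Scd1 does not overlap between the groups over all 18 arrays, so its order on these 5 adds nothing to that, and their Adipoq values are not matched one to one. Scd2 was 11.91, 13.31 and 13.30 in these tumours, against 14.38 and 14.83 in these normal samples, without overlap on these arrays. Fasn was 10.39, 10.45 and 10.53 in these tumours, against 10.56 and 10.66 in these normal samples, a gap far smaller than that of the desaturases. The 5 arrays were picked by their Adipoq values, so these are descriptions with no test.

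Within the normal prostates, Scd1 was higher on arrays with more Adipoq, and Scd2 was not. The slope of Scd1 was 0.30 ± 0.06 (SE) log2 units per log2 unit of Adipoq, with limma's adjusted p = 0.0529 over 12792 genes, just short of being called. At that threshold 0 of 10 members rose with Adipoq, against 1.58% of all genes. At an unadjusted p under 0.05, 4 members (Scd1, Fasn, Acaca and Me1) and 1339 of all genes were counted. The Scd1 slope was called with the adipocyte list in place of Adipoq (limma's adjusted p = 0.0482). Slopes were 0.29 for Fasn, 0.24 for Me1, 0.17 for Acaca and -0.08 for Scd2, none of them called (limma's adjusted p = 0.371, 0.343, 0.409 and 0.720).

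The size of these slopes depended on which arrays were kept. Without normal prostates 5 and 7, the arrays farthest from the median of Adipoq, the slope of Scd1 was 0.56 (limma's adjusted p = 0.597). Among the 6 normal prostates with bright spike-in controls, a technical batch, it was 0.52 (adjusted p = 0.385). That batch holds normal prostate 5 and lacks 7, 8 and 9. The part of each single array was not tested. Slopes without normal prostates 5 and 7 were 0.91 for Fasn, 0.74 for Me1 and 0.50 for Acaca, and that of Scd2 turned positive at 0.04, all not called (limma's adjusted p = 0.507, 0.598, 0.713 and 0.9996). In that fit limma called 0 of 12792 genes, with 592 at an unadjusted p under 0.05.

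Rank correlations exceeded linear ones for the synthesis genes. Over the 9 normal prostates, Pearson's r with Adipoq was 0.854 for Scd1 (exact permutation p = 0.00019), and Spearman's rho was 0.883 (exact permutation p = 0.00308). For Fasn, r was 0.652 (exact permutation p = 0.0785) and rho 0.933 (exact permutation p = 0.00075). For Acaca, r was 0.651 (exact permutation p = 0.0588) and rho 0.917 (exact permutation p = 0.00131). Fasn and Acaca were both highest on normal prostates 2 and 4, which share the highest Adipoq value of 14.30. For Scd2, r was -0.398 (exact permutation p = 0.254) and rho -0.133 (exact permutation p = 0.744).

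Normal prostate 7 stood apart in Adipoq, and the next lowest normal sample was at 10.67. Without normal prostates 5 and 7, the arrays farthest from the median, r was 0.829 for Scd1, 0.814 for Fasn, 0.797 for Acaca and 0.0689 for Scd2 (n = 7). Without normal prostates 2 and 4, a choice made after seeing the data, r was 0.834 for Scd1, 0.776 for Fasn, 0.569 for Acaca and -0.749 for Scd2 (n = 7). The Scd2 relation depended on which arrays were kept, and the r of Scd1, though not its slope, changed little. In each group the 10 members were related to Adipoq and to the adipocyte score, 40 pairs in all, each by r, by rho and by r without 2 arrays. The values without normal prostates 2 and 4 are a further 10. None of these p-values is adjusted, and those adjusted over all genes are the ones of the slopes.

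**Figure D3:**
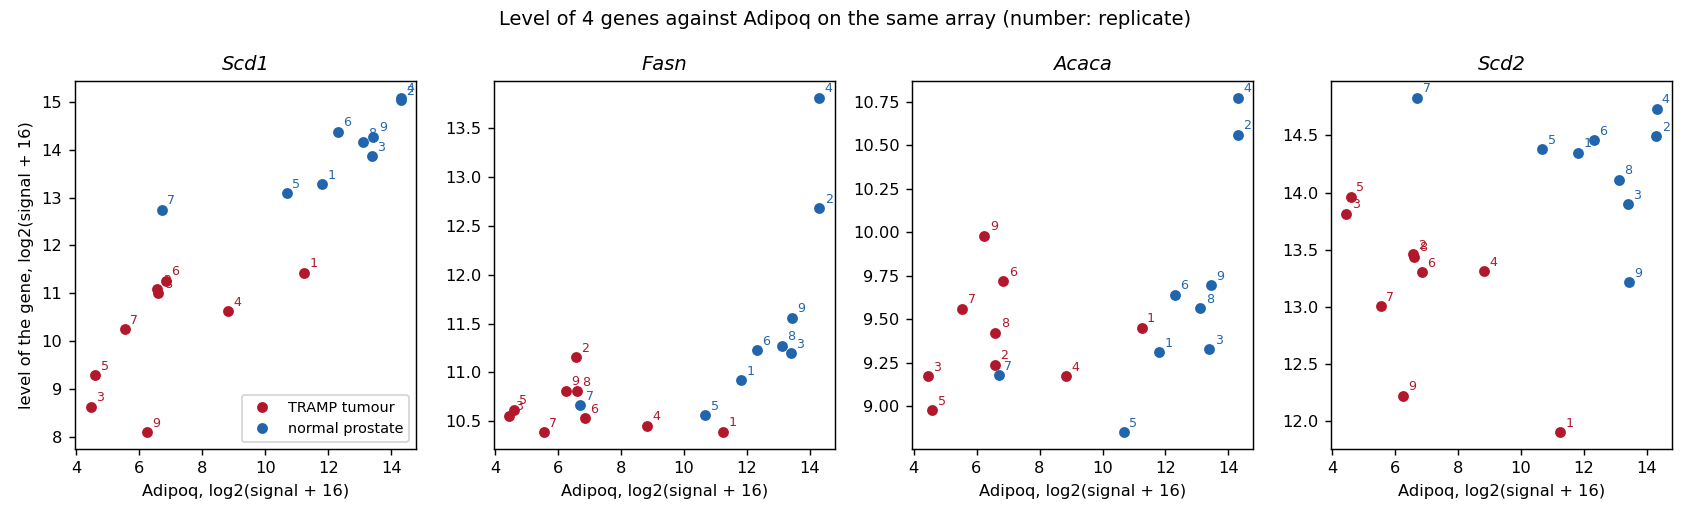
Log2(signal + 16) of Scd1, Fasn, Acaca and Scd2 against that of Adipoq, with each point an array of the 9 TRAMP tumours or the 9 normal prostates. Scd1 climbs with Adipoq among normal prostates and lies lower in tumours, Fasn and Acaca are high on the 2 normal prostates with the most Adipoq, and Scd2 shows no climb.

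In the tumours Adipoq was mostly dim, which leaves its order there noisy. None of the 10 members rose with Adipoq, and of all genes 0 of 12792 (0%) did in limma's test, with 887 genes at an unadjusted p under 0.05. Slopes were 0.35 for Scd1 and -0.22 for Scd2 (limma's adjusted p = 0.703 for both). Over the 9 tumours, r was 0.615 for Scd1 (exact permutation p = 0.0706), with rho 0.783 (exact permutation p = 0.0172). Scd2 had an r of -0.685 (exact permutation p = 0.0422) and a rho of -0.567 (exact permutation p = 0.121). Without tumours 1 and 4 these r values were 0.628 and -0.489 (n = 7; exact permutation p = 0.140 and 0.266). With the adipocyte score, r over the 9 tumours was 0.593 for Scd1 and -0.388 for Scd2 (exact permutation p = 0.0840 and 0.301). Without tumours 1 and 4 it was 0.595 for Scd1 and turned positive for Scd2, at 0.511 (n = 7; exact permutation p = 0.159 and 0.247).

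Elovl5 and Srebf1 had the strongest relations to Adipoq in the tumours once tumours 1 and 4 were left out. Adipoq was dim on all 7 tumours that remained. For Elovl5, r over all 9 tumours was -0.553 (exact permutation p = 0.116) and rho -0.717 (exact permutation p = 0.0369), and r without them was -0.948 (n = 7; exact permutation p = 0.00298). Tumours 3, 5 and 7, highest in Elovl5 and in seminal vesicle genes, had the lowest Adipoq values, 4.45, 4.60 and 5.54, all dim. For Srebf1, r was -0.126 (exact permutation p = 0.741) and rho 0.383 (exact permutation p = 0.312) over all 9, and r without tumours 1 and 4 was 0.945 (n = 7; exact permutation p = 0.00218). Neither slope was called over all genes without those tumours (limma's adjusted p = 0.161 for Elovl5 and 0.261 for Srebf1). The adipocyte score did not share these relations. Without tumours 1 and 4, its r was -0.047 with Elovl5 and 0.310 with Srebf1 (n = 7; exact permutation p = 0.917 and 0.482).

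The slopes of the members were not shown to differ between tumours and normal prostate. The test of the difference called 3 genes (0.0235%) and no member, with a lowest adjusted p among members of 0.626, for Elovl5. With all 18 arrays in 1 fit and group as a term, 0.281% of all genes rose with Adipoq and none of the 10 members did.

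Technical batches were read from the poly-A spike controls, bright (9.78 to 12.4, log2) on 5 tumours and 6 normal prostates and dim (4.81 to 5.26) on the others. Both batches hold both groups, so the members could be compared within each. In the bright batch Scd1 differed by -3.91 and Scd2 by -1.09, both called (limma's adjusted p = 0.00215 and 0.0418). Elovl5 differed by 1.16 there and was not called (adjusted p = 0.0536), so 0 members were higher against 7.65% of all genes and 2 lower against 8.83%. In the dim batch, with 4 tumours and 3 normal prostates, limma called 0 genes, with 1639 at an unadjusted p under 0.05. The differences there were -3.57 for Scd1, -1.06 for Scd2 and 1.01 for Elovl5 (adjusted p = 0.266, 0.393 and 0.313). With batch as a block over all arrays they were -3.78, -1.08 and 1.10 (adjusted p = 0.000105, 0.00789 and 0.00623).

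Genes around the members were lower in tumours more often than higher. Of 60 further genes of fatty acid synthesis, its regulators and triglyceride assembly, 52 were tested, 20 were lower (38.5%, against 12.7% of all genes) and 1 was higher (1.92%, against 11.3%). Their median difference was -0.43, against -0.01 over all genes. With Adipoq in the fit 8 were lower (15.4%, against 8.78% of all genes). The count was 12 with the actin ratio as a covariate (23.1%, against 6.79% of all genes) and 13 in the bright spike batch alone (25%, against 8.83%). In the dim batch limma called 0 of all genes.

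**Figure D4:**
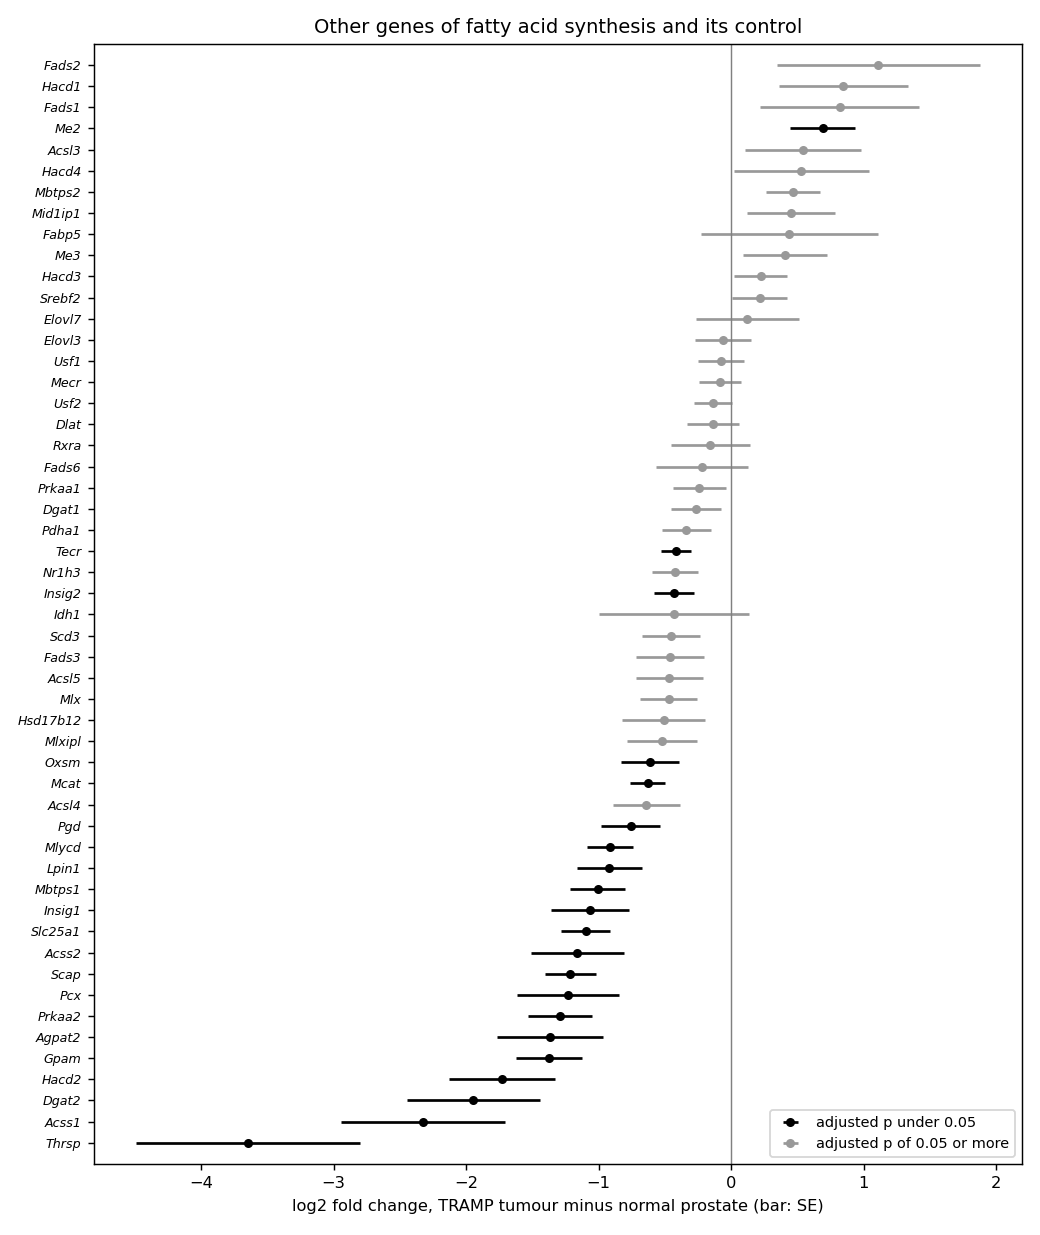
Differences on the log2 scale, tumour minus normal prostate, of the 52 further pathway genes, with bars of 1 SE and an adjusted p under 0.05 in black. Of them 20 were called lower and 1 higher, and Thrsp has the lowest value.

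Among genes that control the release of Srebf1, Scap, Mbtps1 and Insig1 were lower in tumours, and Mbtps2 was not called. Scap, which carries the precursor to the Golgi, averaged 10.06 ± 0.36 in tumours and 11.27 ± 0.44 in normal prostate (SD, n = 9 each), with no overlap. It differed by -1.21 ± 0.19 (SE), with limma's adjusted p = 0.000321. Mbtps1, the protease that makes the first cleavage, differed by -1.01 (limma's adjusted p = 0.00207). Mbtps2, the other protease of the release, went the other way with a difference of 0.47, not called (limma's adjusted p = 0.104). Insig1, the sterol-sensing retention protein that is itself a target of the pathway, differed by -1.07 (limma's adjusted p = 0.0135). Srebf2, the paralog that drives cholesterol synthesis, differed by 0.21 and Mlxipl, the carbohydrate-responsive factor, by -0.52, both not called (limma's adjusted p = 0.486 and 0.161).

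RNA of the citrate exporter and of 3 enzymes that handle acetyl or malonyl groups was lower in tumours. Slc25a1, which brings citrate out to Acly, averaged 10.11 ± 0.49 in tumours and 11.21 ± 0.26 in normal prostate (SD, n = 9 each), with no overlap. Its difference was -1.10 ± 0.19 (SE), with limma's adjusted p = 0.000585. Acss2, which makes acetyl-CoA from acetate, differed by -1.16 (limma's adjusted p = 0.0223). Mlycd, which breaks down malonyl-CoA, differed by -0.91, and Mcat, the mitochondrial malonyl transferase, by -0.63 (limma's adjusted p = 0.00125 and 0.00265). Me2, the mitochondrial malic enzyme, was the gene called higher, by 0.69 (limma's adjusted p = 0.0461). It falls outside the rule for named genes and was chosen after its value was seen.

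Gpam, Prkaa2, Hacd2 and Thrsp were also lower in tumours. Gpam, the first acyltransferase of triglyceride assembly, differed by -1.37, and Prkaa2, a catalytic subunit of the AMP-activated kinase that inhibits Acaca, by -1.29 (limma's adjusted p = 0.000966 and 0.00112). Hacd2, a dehydratase of the elongation cycle, differed by -1.73 (limma's adjusted p = 0.00461). Its relatives Hacd1, Hacd3 and Hacd4 went the other way by 0.85, 0.22 and 0.53, all not called (limma's adjusted p = 0.217, 0.434 and 0.477). Thrsp, a lipogenic protein abundant in fat, averaged 7.44 ± 1.38 in tumours and 11.09 ± 2.37 in normal prostate (SD, n = 9 each). Its difference was -3.64 ± 0.85 (SE), with limma's adjusted p = 0.00484. Thrsp and Dgat2, the acyltransferase of the last step to triglyceride, were the pathway genes that rose with Adipoq in normal prostate (slopes 0.98 and 0.54, limma's adjusted p = 6.48e-05 and 0.00271), 2 of 52 (3.85%, against 1.58% of all genes). Dgat2 too was chosen after its value was seen.

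The polyunsaturated desaturases that work with Elovl5 did not pass the test. Fads1 differed by 0.82 and Fads2 by 1.11 (limma's adjusted p = 0.337 and 0.307). Acacb, the mitochondrial counterpart of Acaca, did not pass the filter. Elovl2, the elongase next to Elovl5 in that route, did not pass it either: it was above the 40th percentile on 3 tumours and 0 normal prostates.

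The genes most like each of 3 members were taken by Pearson's r over all 18 arrays after the group means were removed, as a description. For Scd1 they were Il18 (0.840), Acsm3 (0.810), Ifi27l2a (0.806), Cd209f (0.804) and Cxcl13 (0.801), with Adipoq in place 37 (0.696). For Fasn they were Dgat1 (0.859), Agpat2 (0.850), Acaca (0.845), Pnpla3 (0.843) and Klhl2 (0.835), with Acly in place 25 (0.683). For Scd2 they were Hddc2 (0.940), Tpd52 (0.927), Mansc1 (0.919), D630039A03Rik (0.914) and Sugp1 (0.913). The lists share no gene, and Scd1 and Scd2 had an r of -0.096 with each other. All these values share the same 18 arrays and their mixture of tissues.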

How the data were processed

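Per the labels' protocols, Trizol extracts of total RNA were biotin-labelled for Affymetrix arrays. The deposited values are intensities of probe sets, not logged, for which the submitters' processing notes name MAS5 without a version. MAS5 scales each array by 1 factor: after trimming 2%, every array of the deposited intensities averaged 500.002 to 500.003. Such scaling keeps intensity-dependent differences, and low values are noisy. Detection calls were not used.

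Log2(signal + 16) was computed without further normalization. By the platform table, 34945 of 45101 probe sets have 1 gene, 932 have several, 9160 have none and 64 are controls. By Entrez identifier 34741 matched a mouse gene table (GRCm38.p6), and 0 symbols changed. Probe sets above the 40th percentile of their array (6.91 to 7.41) on at least 9 of 18 arrays were kept (27292, or 60.5%). A gene was represented by its kept probe set with the highest mean. limma 3.58.1 in R 4.3.3 (lmFit, eBayes, group only) tested 12793 genes, two-sided, with Benjamini-Hochberg adjustment at 0.05, and slopes on Adipoq in each group. The code was tested on simulated data. Exact tests used all 48620 splits or all 362880 pairings (scipy 1.17.1, Python 3.11.15; figures with matplotlib 3.10.9).

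The members, the gene lists and most alternatives were chosen with earlier results of these data known. The uroplakin list and the fits without tumour 4 and normal prostates 3 and 5, or without normal prostates 2 and 4, were added after seeing the data. Of 143 listed symbols, 14 had no single-gene probe set and are not analysed here. Named genes were the members, Adipoq, the adipocyte list, up to 8 pathway genes called with the largest absolute t, 8 further pathway genes (Fads1, Fads2, Acacb, Srebf2, Insig1, Mlxipl, Thrsp and Acss2), and the 5 genes most like Scd1, Fasn and Scd2. Spinkl, Ceacam10, Mbtps2, Hacd1, Hacd3 and Hacd4 were also named, after their values were seen. Alternatives covered the pseudocount, the filter, the normalization, the choice of probe set, weights, blocks, covariates and omitted arrays.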

Additional observations from a re-analysis of the deposited data

Results flagged for a closer look

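Of 52 groups of 9 arrays examined, 5 held a value far from the others by Dixon's criterion, where chance gives about 5% of groups. Normal prostate 7 had an Adipoq value of 6.71, and the nearest normal sample was at 10.67. Normal prostate 3 had the highest Elovl1 value of the normal samples, 11.95, with the nearest at 11.50, a gap only just past the criterion. Normal prostate 7 also had the highest Scap value of the normal samples, 12.36, with the nearest at 11.38. Tumour 4 had the highest Gpam value of the tumours, 12.49, with the nearest at 11.13. Tumour 2 had the lowest Acss2 value of the tumours, 7.26, with the nearest tumour at 8.72.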

How the results depend on the processing

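Scd1 was called lower in tumours in 38 of 39 settings, with differences between -4.06 and -2.05 over all of them. Scd2 was called lower in 37, with differences between -1.90 and -0.76. Of these settings, 18 leave out 1 array each and are otherwise the same fit. Elovl5 was called higher in 36 of 39, with differences between 0.73 and 1.30. No direction of a called member reversed. Members called higher numbered 0 in the bright spike batch alone, in the dim batch alone and with Adipoq as a covariate. Members called lower numbered 0 in the dim batch alone and 1 with the actin ratio as a covariate. Of all genes, 3067 were called, against 0 in the dim batch (1639 at an unadjusted p under 0.05), 1513 with the adipocyte score, 1634 with the actin ratio and 4860 without the 6 arrays high in seminal vesicle genes. Members rising with Adipoq in normal prostate numbered 1 with the adipocyte score, with a pseudocount of 64 and with quantile normalization, against 0 reported. The cause of these changes was not tested, and a batch alone also has fewer arrays. Leaving out 1 array at a time gave 2455 to 3411 genes called, 1 member higher and 2 to 4 lower. Higher genes made up 47.1% of those called, 35.3% with centring on the 75th percentile and 32.4% with centring on housekeeping genes. Without probe sets that can match several transcripts, 8 members could be tested.

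With the replicate number as a block, 2645 genes were called, with 1 member higher and 2 lower, and Acly was lost. Deviations of same-numbered arrays correlated between -0.106 and 0.314, and 1 of 18 arrays matched its own number best, so the values showed no pairing by number. Whether samples were collected or processed in pairs cannot be settled from such values. Array number and the noise of dim probe sets limit what the test could detect.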
